A study of Mus musculus with 40 samples.

Results

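The Celsr genes and their core partners in planar cell polarity, Celsr1, Celsr2, Celsr3, Vangl1, Vangl2, Prickle1 and Prickle2, were examined in mice lacking KAT6A or KAT6B, or carrying point mutations in the acetyltransferase domain of these proteins. The 7 genes were taken by symbol from the 26411 genes counted. They were chosen by the values of 3 comparisons in these data, because Celsr2 and Celsr3 were lower in Kat6a-/- than in WT embryos, because Celsr2 was higher in Kat6a E/E than in Kat6a-/- embryos, and because Celsr1 was higher in Kat6a E/E than in WT haematopoietic cells, and these are given as description and without a p-value. The other members complete the core of the pathway.

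Bulk RNA-seq was performed on 24 whole embryos at embryonic day 9.5 (E9.5) and on 16 samples of LSK cells, the lineage marker-negative, SCA-1-positive and c-KIT-positive cells that hold the stem and progenitor cells of blood, sorted from fetal liver at E14.5. The E9.5 embryos had 6 genotypes with 4 embryos each. These were WT for both genes, Kat6a-/- (labelled cfd/cfd), Kat6b-/- (labelled dec/dec), Kat6a E/E (the KAT6A change G656E on both alleles), Kat6b E/E (the KAT6B change G577E on both alleles) and a double mutant homozygous for both point mutations. Each single mutant was WT at the other gene. The alleles were germline, so every cell of a mutant carried them, and the point mutations exchange a glycine for a glutamic acid in the acetyltransferase domain. The LSK cells came from WT fetuses, from both single point mutants and from the double mutant, with 4 samples each. Null LSK cells were not analysed here. Counts in all libraries are for the whole gene, so the deleted exons could not be checked. Kat6a stood at 165.7 ± 4.66 CPM (a gene's counts scaled to the same total over the genes tested in every library; SD, n = 4) in Kat6a-/- and 175.9 ± 8.79 CPM in WT embryos, and Kat6b at 54.5 ± 2.75 CPM in Kat6b-/- and 40.5 ± 2.51 CPM in WT embryos.

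The embryo libraries held 8401990 to 23339359 counts and came from 17 litters, of which 3 held 2 genotypes. The LSK libraries held 12270376 to 59216547 counts and came from 9 litters, of which 2 held more than 1 genotype. WT LSK replicates 1 to 3 were littermates, as were double mutant LSK replicates 2 to 4. The remaining replicate of each of these genotypes came from another litter. Kat6b E/E and double mutant embryos shared no litter with another genotype, so litter and genotype cannot be told apart for them except through a litter term fitted across all embryos. Kit and Cd34 stood at 348.7 CPM or more in every LSK library, whereas Ly6a, which encodes SCA-1, stood at 0.937 to 10.3 CPM. Of the neural progenitor markers, Sox2 was at 0 in all LSK libraries, and Sox1, Sox3 and Pax6 reached at most 0.2826 CPM. Nes, in contrast, stood at 10.39 to 42.15 CPM.

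Planar cell polarity aligns cells within the plane of a tissue. Celsr proteins are large atypical cadherins with a seven-pass membrane region that bind one another across neighbouring cells. On one side of a cell they act with Frizzled and Dishevelled proteins, and on the opposite side with the four-pass membrane proteins Vangl1 and Vangl2 and the cytoplasmic proteins Prickle1 and Prickle2. In the mouse embryo the pathway is known for neural tube closure, orientation of the sensory hair cells of the ear and guidance of axons, and Celsr2 and Celsr3 are best known from neural progenitors and neurons.

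The sequences just upstream of Celsr2 and Celsr3 are shown because these were the 2 members that were lower in the Kat6a-/- embryos, and the CG dinucleotide was counted in them because many active mouse promoters lie in CG-rich stretches. Celsr2 lies on the minus strand of chromosome 3 at 108298165 to 108323397 (GRCm39, GENCODE vM39; 31 exon blocks), and Celsr3 on the plus strand of chromosome 9 at 108703519 to 108730168 (35 exon blocks). The windows are the 250 bases before the GENCODE start of Celsr2 (chr3:108323398-108323647, minus strand) and the 250 bases before the RefSeq start of Celsr3 (chr9:108702994-108703243, plus strand), printed 5′ to 3′ along the gene's strand with every CG in capitals.
Celsr2: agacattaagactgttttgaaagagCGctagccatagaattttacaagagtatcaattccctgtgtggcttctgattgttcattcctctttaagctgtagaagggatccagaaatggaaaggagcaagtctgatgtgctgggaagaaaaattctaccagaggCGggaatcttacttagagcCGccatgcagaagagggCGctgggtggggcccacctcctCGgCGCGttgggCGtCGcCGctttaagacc
Celsr3: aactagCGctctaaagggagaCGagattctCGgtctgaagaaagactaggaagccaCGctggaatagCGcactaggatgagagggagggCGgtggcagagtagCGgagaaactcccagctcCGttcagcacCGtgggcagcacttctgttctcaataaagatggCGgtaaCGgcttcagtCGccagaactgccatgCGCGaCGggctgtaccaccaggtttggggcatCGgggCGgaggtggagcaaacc
The Celsr2 window held 10 CG dinucleotides, and 35.7% of 21757 windows of 250 bases before the starts of protein-coding genes held as many. Before its GENCODE start, Celsr3 had 30, and 2.67% of those windows held as many, whereas the printed window before its RefSeq start held 17, a count reached in 17.1%. The median window held 6. The letters CG read the same on both strands. The Celsr2 window overlaps an exon of the antisense long non-coding RNA Gm52630, and the Celsr3 window an exon of Gm35025. Before the GENCODE start of the others, Celsr1 had 19 CG dinucleotides, Prickle2 had 12, Vangl1 and Vangl2 had 5 each and Prickle1 had 4.

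Per kilobase of counted gene length, Vangl2 was the most abundant of the 7 transcripts in E9.5 embryos, with a mean of 28.3 ± 2.06 RPKM (SD, n = 24 embryos of all genotypes). Celsr2 followed at 13.02 ± 2.85 RPKM, Celsr1 at 10.1 ± 0.921 RPKM and Prickle1 at 9.40 ± 1.37 RPKM. Vangl1 stood at 5.60 ± 0.677 RPKM, Prickle2 at 1.63 ± 0.190 RPKM and Celsr3 at 0.972 ± 0.340 RPKM. The ranges of Vangl2 and Celsr2 did not overlap, nor did those of Prickle1 and Vangl1 or of Vangl1 and Prickle2. Celsr2, Celsr1 and Prickle1 overlapped their neighbours in this order, as did Prickle2 and Celsr3. Relative to its mean, Celsr3 was the most variable of the 7.

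In the embryos Celsr2 had its lowest values in the null and double mutant genotypes. In WT embryos Celsr2 stood at 159.8, 165.3, 155.9 and 148.6 CPM. In Kat6a-/- embryos it stood at 86.6, 129.3, 100.2 and 91.9 CPM, in Kat6b-/- embryos at 84.0, 127.6, 146.7 and 116.3 CPM, and in double mutant embryos at 120.5, 145.0, 128.9 and 104.4 CPM. All 12 embryos of these 3 genotypes were below all 4 WT embryos, which the 3 genotypes share as their reference. The share of all genes that separate in this way is not given, here or for the other members. In Kat6a E/E embryos Celsr2 stood at 196.1, 172.1, 150.3 and 178.2 CPM and in Kat6b E/E embryos at 155.9, 152.6, 171.6 and 134.2 CPM. Both single point mutants overlapped the WT embryos, and the lowest Kat6a E/E embryo was above the highest Kat6a-/- embryo.

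In the comparison that chose the members, Celsr2 was lower in Kat6a-/- than in WT embryos by a log2 fold change of -0.51 ± 0.061 (SE; 95% interval -0.64 to -0.38), that is, 0.70 of the WT level. Celsr3 was lower by -0.61 ± 0.154 (95% interval -0.93 to -0.29). These were 2 of the 7 members, and 2.64% of the 14183 genes tested in this comparison passed the false discovery rate (FDR) threshold of 0.05. The fitted changes are adjusted for 4 surrogate variables and differ from the ratio of the mean CPM. Celsr2 passed the threshold in 19 of 20 alternative settings, among them each of the 8 fits that left out 1 embryo. Celsr3 passed it in 8 of the 20 settings, among them 1 of the 8 fits that left out an embryo. These counts describe how the fit depends on the processing. They reuse the embryos that chose the members and are no test of the differences. In the litter that held both genotypes, Celsr2 stood at 159.8 CPM in the WT and 129.3 CPM in the Kat6a-/- embryo, and Celsr3 at 14.8 and 14.3 CPM.

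The remaining comparisons with WT did not choose the members, but they use the same 4 WT embryos. In double mutant embryos Celsr2 was lower than in WT embryos by -0.26 ± 0.061 on the log2 scale (95% interval -0.39 to -0.13; FDR 0.0216, limma), with all 4 embryos below all WT embryos. It was 1 of 7 members called where 2.91% of all genes were called. This call was lost when any 1 of the 4 WT embryos or replicate 4 of the double mutant was left out, with FDR values up to 0.116 and a change of -0.20 without that replicate, and it held in 11 of 20 alternative settings, in all of which Celsr2 was lower. Without surrogate variables none of the 14183 genes was called in this comparison, and Celsr2 had an FDR of 0.406 (limma). In Kat6b-/- embryos the Celsr2 change was -0.25 ± 0.060 (95% interval -0.37 to -0.12; FDR 0.061, limma). None of the 7 members passed the threshold there, where 0.508% of genes did. By unadjusted p under 0.05 there were 4 members, beside 1713 of the 14183 genes, and with the same surrogate variables edgeR's quasi-likelihood test and DESeq2 each called 1 member, Celsr2. Without Kat6b-/- replicate 1, the shallowest embryo library with 8401990 counts, the Celsr2 change was -0.16. In the litter shared with a WT embryo, Celsr2 stood at 127.6 CPM in the Kat6b-/- and 155.9 CPM in the WT embryo.

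Neither single point mutation moved Celsr2 past the threshold against WT. The Celsr2 change was 0.12 ± 0.057 in Kat6a E/E embryos (95% interval 0.00 to 0.24; FDR 0.475, limma) and -0.01 ± 0.058 in Kat6b E/E embryos (95% interval -0.13 to 0.11; FDR 0.999, limma). Of the 7 members 0 were called in either comparison by limma, edgeR or DESeq2 with 4 surrogate variables, beside 0.275% of all genes for the Kat6a and 0% for the Kat6b point mutant. Unadjusted p was under 0.05 for 1 member in the Kat6a and 2 in the Kat6b point mutant, beside 1421 and 626 of the 14183 genes. In the litter shared by WT and Kat6a E/E, Celsr2 stood at 165.3 CPM in the WT and 196.1 CPM in the Kat6a E/E embryo.

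**Figure D1:**
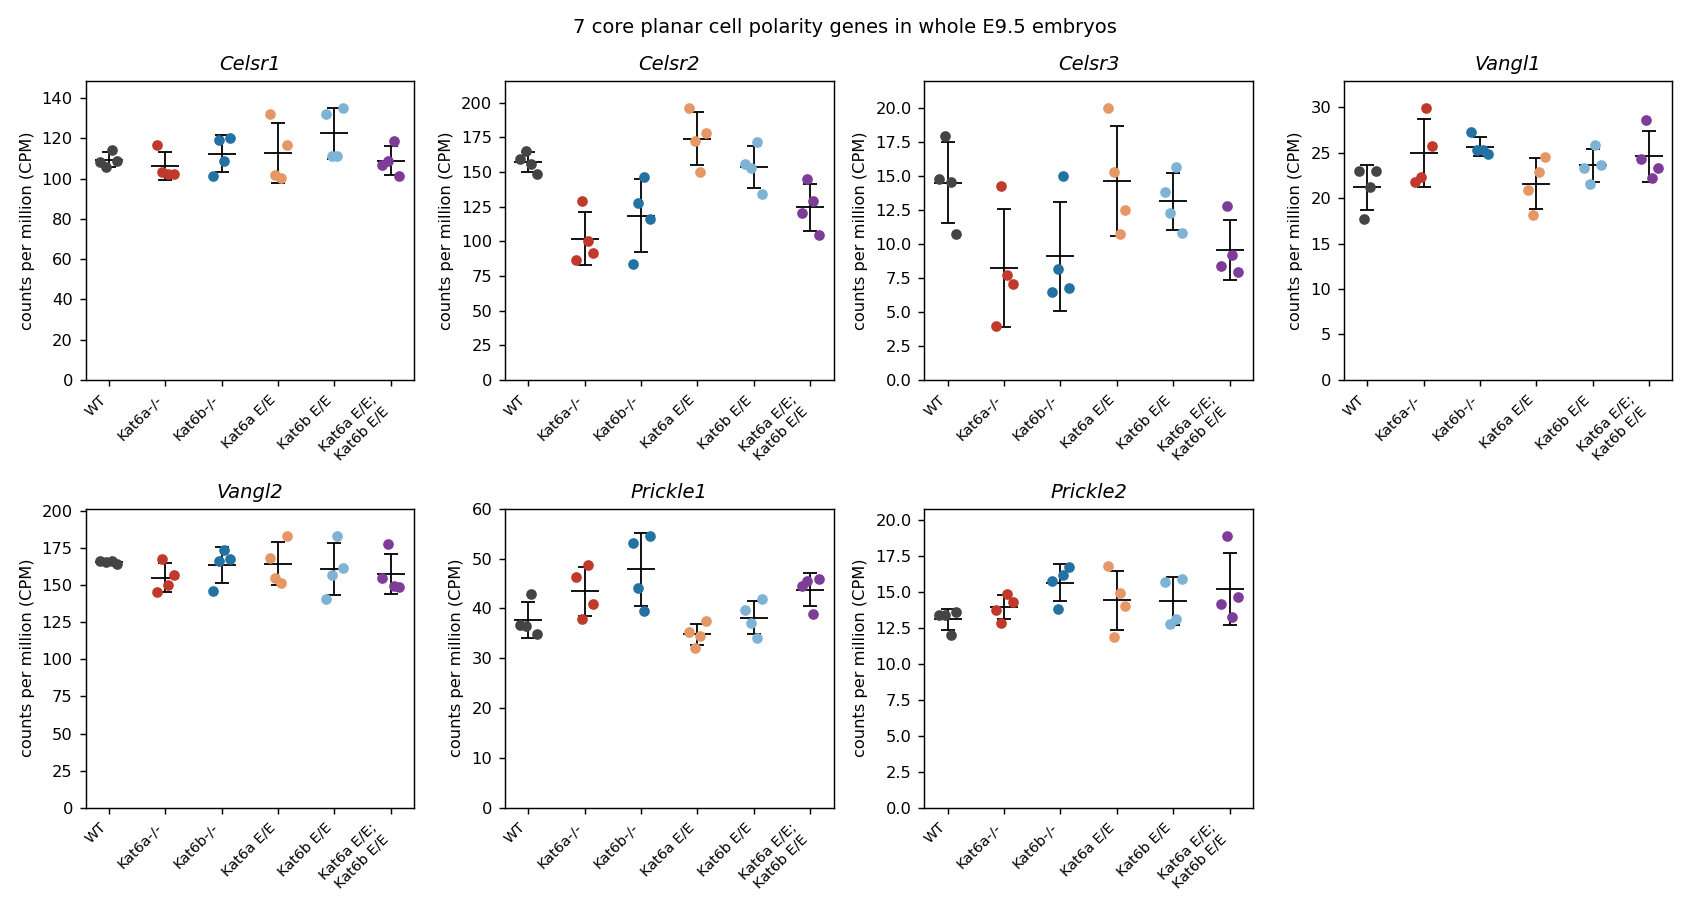
Level of the 7 planar cell polarity genes in E9.5 embryos, in library-scaled counts (CPM, vertical axes, each starting at 0) by genotype. Points are single embryos and bars the mean ± SD of 4 embryos. Celsr2 lies between 86.6 and 129.3 CPM in Kat6a-/- embryos and between 148.6 and 165.3 CPM in WT embryos, while Vangl2 keeps between 141.0 and 183.3 CPM in all 24 embryos.

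The point mutants were also compared with the null mutants of the same gene. Celsr2 was higher in Kat6a E/E than in Kat6a-/- embryos by 0.63 ± 0.063 on the log2 scale (95% interval 0.50 to 0.76), which is one of the values that chose the members. It was 1 of 7 members called where 1.6% of all genes were called. The comparison of Kat6b E/E with Kat6b-/- embryos shares no embryo with those that chose the members. There, the Celsr2 change was 0.23 ± 0.061 towards higher values in Kat6b E/E embryos (95% interval 0.11 to 0.36), which did not pass the threshold (FDR 0.228, limma) and 1 embryo of each genotype lay within the range of the other. Of the 7 members 0 were called where 0.0353% of all genes were, with 3 members at an unadjusted p under 0.05 beside 1253 of all 14183 genes, and edgeR called 0 and DESeq2 1, Celsr2. The change was above 0 in all 20 alternative settings, from 0.16 to 0.36.

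The double mutant was also compared with each of the single mutants. Against Kat6b-/- embryos the Celsr2 change was -0.01 ± 0.061 (95% interval -0.14 to 0.11; FDR 0.968, limma). Against Kat6a E/E embryos, Celsr2 was lower in the double mutant by -0.38 ± 0.065 (95% interval -0.51 to -0.25; FDR 0.0163, limma), with no overlap between the genotypes, and it was 1 of 7 members called where 0.141% of all genes were. The Celsr2 call was lost without Kat6a E/E replicate 1 or 4 or without double mutant replicate 2 or 4, with FDR values up to 0.143. Without surrogate variables none of the 14183 genes was called in this comparison, and Celsr2 had a change of -0.50 with an FDR of 0.269 (limma). The Kat6a E/E embryos, and the Kat6a-/- embryos compared with the double mutant here, are among those that chose the members. Celsr2 was chosen partly because it was higher in the former than in the latter. The FDR values and calls of the double mutant against these embryos are therefore description and no test of the differences. Against Kat6b E/E embryos the Celsr2 change was -0.25 ± 0.063 (95% interval -0.38 to -0.12; FDR 0.135, limma). Against Kat6a-/- embryos it was 0.25 ± 0.065 (95% interval 0.12 to 0.39; FDR 0.185, limma). No member was called against Kat6b-/-, Kat6b E/E or Kat6a-/- embryos, beside 0.212%, 0.0282% and 0.00705% of all genes. DESeq2 called 0, 1 and 1 member in these 3 comparisons, edgeR called 0 in each, and unadjusted p was under 0.05 for 1, 3 and 1 members, beside 1512, 1699 and 1479 of the 14183 genes.

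Between the null mutants, Celsr2 was lower in Kat6a-/- than in Kat6b-/- embryos by -0.26 ± 0.063 (95% interval -0.39 to -0.13; FDR 0.0349, limma), and the ranges of the genotypes overlapped. It was 1 of 7 members called where 1.64% of all genes were, and the call held in 8 of 20 alternative settings. The Kat6a-/- embryos of this comparison are those that chose the members, partly for their lower Celsr2. The FDR value and call of Celsr2 are therefore description and no test of the difference.

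Celsr3, which guides axons in the developing forebrain and spinal cord, was far less abundant, and its values moved with those of Celsr2. It stood at 14.8, 17.9, 14.6 and 10.7 CPM in WT, at 3.97, 14.3, 7.74 and 7.02 CPM in Kat6a-/- and at 6.44, 8.18, 14.96 and 6.74 CPM in Kat6b-/- embryos. It stood at 8.35, 12.8, 9.18 and 7.91 CPM in the double mutant, at 19.96, 15.3, 10.7 and 12.5 CPM in Kat6a E/E and at 13.8, 12.2, 15.6 and 10.8 CPM in Kat6b E/E embryos. One embryo in each null genotype lay within the WT range and the other 3 lay below it. The lowest Kat6a-/- embryo rested on 45 counts. The Celsr3 change against WT was -0.44 ± 0.156 in the double mutant (95% interval -0.76 to -0.12; FDR 0.120, limma) and -0.33 ± 0.147 in Kat6b-/- embryos (FDR 0.354, limma). It was -0.08 ± 0.135 for the Kat6a point mutant and -0.09 ± 0.140 for the Kat6b point mutant, and neither passed the threshold. Between Kat6b E/E and Kat6b-/- embryos it was 0.25 ± 0.150 (95% interval -0.06 to 0.56; FDR 0.657, limma). Of the exon bases of Celsr3, 5.27% lie under other genes in the annotation, and counting by strand is not given in the sources used here.

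Celsr1, the member best known from neural tube closure and from skin, passed the threshold in no comparison of embryos. It stood at 108.5, 105.7, 114.4 and 109.0 CPM in WT embryos and at 100.3 to 135.0 CPM over all 24. The largest Celsr1 change against WT was 0.13 ± 0.064 in Kat6b E/E embryos (95% interval 0.00 to 0.27; FDR 0.998, limma). In Kat6a-/- embryos the Celsr1 change was -0.07 ± 0.065 (95% interval -0.21 to 0.06). Across the 24 embryos, the Pearson correlation of Celsr1 was 0.31 with Celsr2 and 0.14 with Celsr3.

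**Figure D2:**
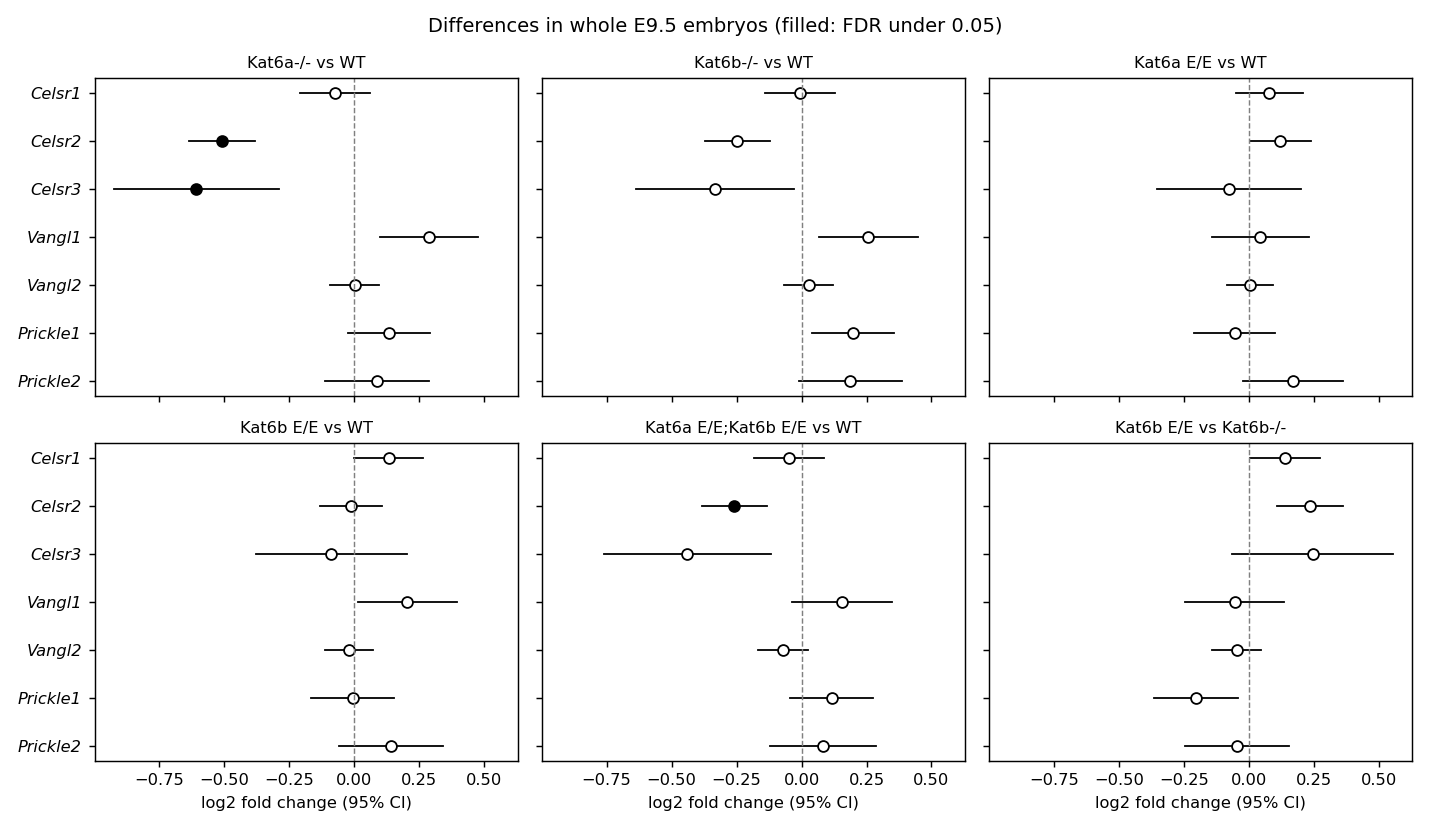
Log2 fold change of each member (horizontal axis) with its 95% confidence interval in 6 comparisons of E9.5 embryos, from the limma fit. Filled points passed the FDR threshold of 0.05. Celsr2 and Celsr3 lie below 0 in Kat6a-/-, Kat6b-/- and double mutant embryos, and the intervals of Vangl2 include 0 in every comparison shown.

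Vangl2, whose loss in the mouse leaves the neural tube open, was the steadiest of the 7 genes. It stood at 166.5, 165.4, 166.2 and 164.4 CPM in WT embryos and at 141.0 to 183.3 CPM over all 24. The Vangl2 change against WT was 0.00 ± 0.045 in Kat6a-/- embryos (95% interval -0.09 to 0.09), 0.03 ± 0.046 in Kat6b-/- and -0.07 ± 0.046 in double mutant embryos (95% interval -0.17 to 0.02; FDR 0.429, limma). None of these passed the threshold.

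Vangl1, the paralogue of Vangl2, passed the threshold in no genotype. It stood at 22.9, 17.7, 21.2 and 22.9 CPM in WT, 21.8, 22.3, 29.9 and 25.8 CPM in Kat6a-/- and 27.2, 25.2, 25.3 and 24.8 CPM in Kat6b-/- embryos. All Kat6b-/- embryos were above all WT embryos, and the Kat6a-/- embryos overlapped them. The Vangl1 change was 0.26 ± 0.092 in Kat6b-/- (95% interval 0.07 to 0.45; FDR 0.220, limma), 0.29 ± 0.092 in Kat6a-/-, 0.20 ± 0.093 in Kat6b E/E (FDR 0.998, limma) and 0.16 ± 0.094 in double mutant embryos (FDR 0.385, limma). Of its exon bases 7.38% lie under genes on the opposite strand.

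Prickle1, a cytoplasmic partner of the Vangl proteins, had its highest values in Kat6b-/- embryos, at 53.2, 44.1, 39.4 and 54.6 CPM. It stood at 36.6, 36.5, 42.9 and 34.8 CPM in WT, 46.4, 37.9, 48.6 and 41.0 CPM in Kat6a-/- and 44.6, 45.6, 38.8 and 46.0 CPM in double mutant embryos. In Kat6a E/E embryos it stood at 35.2, 32.1, 34.4 and 37.4 CPM, below all embryos of the Kat6a-/- and double mutant genotypes. The Prickle1 change against WT was 0.20 ± 0.076 in Kat6b-/- embryos (95% interval 0.04 to 0.35; FDR 0.268, limma) and 0.12 ± 0.077 in the double mutant (FDR 0.447, limma). In Kat6b E/E against Kat6b-/- embryos it was -0.20 ± 0.078 (95% interval -0.36 to -0.04; FDR 0.452, limma). Prickle2 stood at 13.4, 13.4, 12.01 and 13.6 CPM in WT and at 15.8, 13.9, 16.2 and 16.8 CPM in Kat6b-/- embryos, with no overlap, and its change of 0.19 ± 0.096 did not pass the threshold (FDR 0.443, limma). Over all 24 embryos Prickle2 lay between 11.9 and 18.9 CPM.

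The other genes of the pathway were counted from a list of 40, all of which were tested in the embryos. In Kat6b-/- embryos 1 of the 40 was called higher than in WT embryos and 0 lower, beside 0.508% of all genes called. The called gene was Wnt5a, a secreted ligand of the pathway, with a log2 fold change of 0.40 ± 0.067 (FDR 0.00474, limma). Unadjusted p was under 0.05 for 6 of the 40, beside 1713 of all 14183 genes. The median change of the list was -0.02, beside 0.00 for all genes tested. In Kat6a-/- embryos 2 of the 40 were called, both higher, beside 2.64% of all genes called. The 2 were Ror1, a receptor tyrosine kinase that binds Wnt5a, at 0.24 ± 0.064 and the giant cadherin Fat2 at 0.93 ± 0.230. Unadjusted p was under 0.05 for 8 of the 40, beside 2399 of all 14183 genes, and the median of the list was again -0.02. In double mutant, Kat6a E/E and Kat6b E/E embryos 0 of the 40 were called against WT, with 5, 2 and 3 genes at an unadjusted p under 0.05 beside 2581, 1421 and 626 of all 14183 genes, and list medians of -0.04, 0.02 and 0.00 beside 0.00 for all genes.

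By role, 1 of the 7 ligands and co-receptors was called in each null mutant, Wnt5a in Kat6b-/- and Ror1 in Kat6a-/- embryos. Of all genes 0.508% and 2.64% were called in these comparisons. Of the Frizzled and Dishevelled group 0 of 10 genes passed in any genotype against WT. The smallest p in that group belonged to Fzd2 in Kat6b-/- (-0.11 ± 0.038; FDR 0.214, limma) and in double mutant embryos (-0.13 ± 0.038; FDR 0.0624, limma), and to Fzd3, a Frizzled receptor known from axon guidance, in Kat6a-/- embryos (-0.34 ± 0.111). Of the scaffolds and trafficking proteins 0 of 7 passed against WT, and the smallest p belonged to Gipc1 in Kat6b-/- (-0.18 ± 0.054; FDR 0.130, limma) and double mutant embryos (-0.18 ± 0.054; FDR 0.0703, limma). Of the 9 effectors, among them the kinases Rock1 and Rock2, 0 passed. In the Fat and Dachsous group, the protocadherin Dchs2 had the smallest p in Kat6b-/- embryos, with -0.63 ± 0.234 (FDR 0.242, limma). Between Kat6b E/E and Kat6b-/- embryos 0 of the 40 passed, and the Wnt5a change was -0.29 ± 0.068 (FDR 0.149, limma). In Kat6a E/E against Kat6a-/- embryos Ror1 was lower by -0.25 ± 0.065 and the Dishevelled-binding protein Ankrd6 higher by 0.28 ± 0.070. They were the 2 of the 40 genes called, beside 1.6% of all genes. Wnt5a was lower in Kat6a-/- than in Kat6b-/- embryos by -0.36 ± 0.067 (FDR 0.0079, limma), whereas Ror1 was higher by 0.39 ± 0.065 (FDR 0.0036, limma) and Fat2 higher by 0.86 ± 0.219 (FDR 0.0441, limma). Of all genes 1.64% were called between the null mutants.

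Celsr2 and Celsr3 rose and fell together from embryo to embryo. Across the 24 embryos their Pearson correlation was 0.90 and Spearman's coefficient 0.89, and without the 2 embryos farthest from the median of Celsr2 the Pearson correlation was 0.87. Since the genotypes differ in both genes, the relation was recomputed on deviations from the genotype means, where r was 0.84 (permutation p = 5e-05 within genotypes, adjusted p = 0.000363 over 29 relations) and Spearman's coefficient 0.83 (adjusted p = 0.000435), and r was 0.85 without the 2 farthest embryos. Within genotypes Celsr2 also moved with Vangl2, with r 0.67 (permutation p = 0.00187, adjusted p = 0.00858), Spearman's coefficient 0.67 (adjusted p = 0.00957) and r 0.58 without the 2 farthest embryos. The relation of Celsr2 with Prickle1 was inverse, with r -0.76 across all embryos, and within genotypes it did not pass the correction (r -0.55, permutation p = 0.0372, adjusted p = 0.100). The permutations exchanged embryos within a genotype without regard to litter, although some of them were littermates. This limit holds for the p-values of all 29 relations, those with the marker sums included.

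Marker genes of cell types moved with these levels. Whole embryos were sequenced, so fewer cells of a type and less RNA per cell cannot be told apart. The summed level of 5 neural progenitor markers (Sox1, Sox2, Sox3, Pax6 and Nes) had medians of 800.5 CPM in WT (range 781.9 to 811.8), 540.5 in Kat6a-/- (482.5 to 650.8), 661.4 in Kat6b-/- (533.9 to 709.5) and 683.0 in double mutant embryos (637.3 to 715.6). It was 825.6 CPM in Kat6a E/E (690.9 to 841.6) and 737.9 CPM in Kat6b E/E embryos (696.8 to 851.9). The Kat6a-/-, Kat6b-/- and double mutant embryos were all below the WT embryos in this sum, as they were in Celsr2. In Kat6a-/- embryos 4 of the 5 neural progenitor markers were called lower than in WT embryos, with Nes at -0.53 ± 0.077 and Sox3 at -0.47 ± 0.084 showing the largest changes, and 1 of 6 early neuron markers, Elavl4 (-0.48 ± 0.115). Of 4 epithelium markers 3 were called higher, Cdh1 by 0.52 ± 0.123, Epcam by 0.43 ± 0.104 and Krt18 by 0.36 ± 0.084, and of 4 mesoderm markers 0 were called. Of the 5 neural progenitor markers 0 were called in Kat6b-/- and 0 in double mutant embryos against WT by limma. At an unadjusted p under 0.05 were 3 and 2 of them. Among the 6 early neuron markers 1 was called lower in Kat6b-/- embryos and 0 were called in double mutant embryos. Epithelium markers had 0 of 4 called in Kat6b-/- embryos and 1 of 4, higher, in double mutant embryos. Mesoderm markers had 0 of 4 called in either genotype. By unadjusted p under 0.05 these lists held 2, 0 and 0 markers in Kat6b-/- and 0, 4 and 2 in double mutant embryos. Over all 14183 genes, 1713 in Kat6b-/- and 2581 in double mutant embryos had such a p. Of all genes 2.64% were called against WT in Kat6a-/-, 0.508% in Kat6b-/- and 2.91% in double mutant embryos. None of these 19 markers was at 0 in any embryo.

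Celsr2 followed the neural progenitor sum with r 0.94 and Spearman's coefficient 0.93 across the 24 embryos. Within genotypes r was 0.85 (permutation p = 0.00019, adjusted p = 0.0011), Spearman's coefficient 0.81 (adjusted p = 0.000986) and r without the 2 farthest embryos 0.75. Against the summed epithelium markers, whose medians were 226.7 CPM in WT (188.5 to 258.7) and 317.9 CPM in Kat6a-/- embryos (288.9 to 338.3), the within-genotype relation of Celsr2 was inverse (r -0.77, permutation p = 1e-05, the smallest these permutations can give, adjusted p = 0.00029; Spearman's coefficient -0.77, adjusted p = 0.000435; r -0.78 without the 2 farthest embryos). Celsr3 followed the summed early neuron markers within genotypes (r 0.80, permutation p = 4e-05, adjusted p = 0.000363; Spearman's coefficient 0.87, adjusted p = 0.00029; r 0.80 without the 2 farthest embryos). With the mesoderm markers neither gene had a relation that passed the correction (Celsr2, r -0.32, permutation p = 0.255, adjusted p = 0.427). The part of these markers in the differences between genotypes was not tested.

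**Figure D3:**
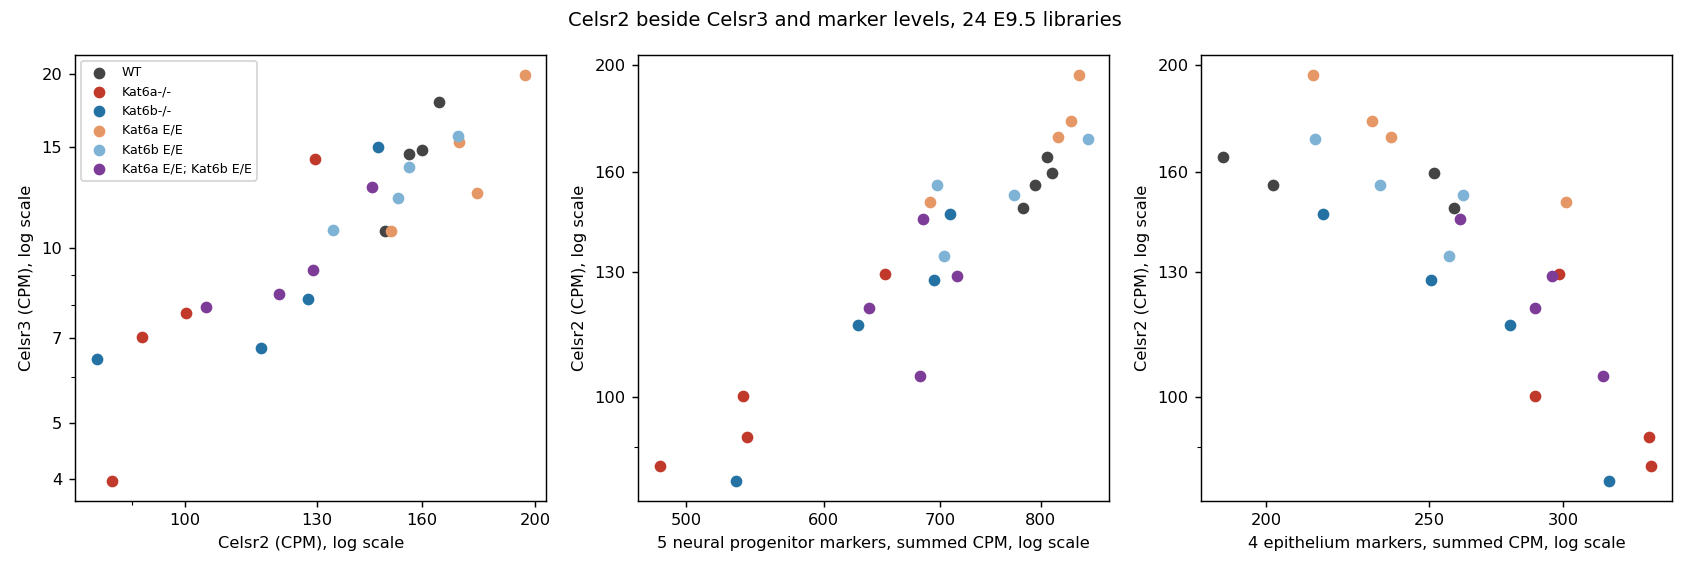
Celsr2 level (CPM, log axis) in the 24 E9.5 embryos against the level of Celsr3, the summed level of 5 neural progenitor markers and the summed level of 4 epithelium markers (CPM, log axes). Each point is 1 embryo, marked by genotype. Celsr2 is high where Celsr3 and the neural progenitor markers are high (r 0.90 and 0.94 across embryos) and low where the epithelium markers are high (r -0.82).

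The genes whose level across the 24 embryos was most like that of Celsr2 were Srgap3, a regulator of neuronal shape (r 0.95), Rfx4, a transcription factor of the neural tube (0.94), Ildr2 (0.93), the engulfment receptor Megf10 (0.92) and the neuronal splicing factor Nova2 (0.92). For Celsr3 they were the adhesion receptor Adgrb1 (r 0.94), Srgap3 (0.94), the neural splicing factor Srrm4 (0.93), the transcription factor Pou3f3 (0.93) and the kinesin Kif5c (0.92). These are correlations over the 24 embryos of all genotypes, which share libraries and genotype differences.

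In LSK cells the members were less abundant. Vangl2 had the highest mean per kilobase at 4.87 ± 1.39 RPKM (SD, n = 16), followed by Vangl1 at 3.25 ± 1.96, Prickle1 at 2.13 ± 0.485, Celsr1 at 1.47 ± 0.589, Celsr2 at 1.103 ± 0.372 and Celsr3 at 0.406 ± 0.204 RPKM. The ranges of all neighbours in this order overlapped. Prickle2 had 0 to 8 counts in 15 of the 16 libraries and 48 counts in the other, replicate 2 of the double mutant, and was not tested.

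Celsr1 stood at 17.9, 16.3, 16 and 11.5 CPM in WT LSK cells. It stood at 27.4, 8.08, 21.1 and 25.0 CPM in Kat6a E/E, at 16.7, 11.4, 9.06 and 13.9 CPM in Kat6b E/E and at 28.9, 14.7, 7.84 and 14.51 CPM in double mutant LSK cells. Of the Kat6a E/E samples 3 were above all WT samples and 1, replicate 2, was below them. The summed level of the 4 LSK markers (Kit, Ly6a, Ptprc and Cd34) was 1033 CPM in that replicate and 1466 to 1664 CPM in the other 3. In WT cells it was 998.3 CPM in replicate 4, the lowest in Celsr1, and 1502 to 1538 CPM in the others. In double mutant cells it was 1510 CPM in replicate 1, the highest in Celsr1, and 852.1 to 974.3 CPM in the others, and in Kat6b E/E cells it was 884.1 to 1273 CPM. The part of these markers in the Celsr1 differences was not tested. In the comparison that chose it, Celsr1 was higher in Kat6a E/E than in WT LSK cells by 0.58 ± 0.103 on the log2 scale (95% interval 0.36 to 0.80), 1 of 6 members tested, where 1.36% of the 13071 genes tested were called. The Celsr1 change ranged from 0.41 to 0.63 over 20 alternative settings. It passed the threshold in 12 of them. Those in which it did not pass include the fits without or with 2 surrogate variables, without the litter term and with the replicate block. They also include the fit of only the 8 libraries compared and the fit without Kat6a E/E replicate 1. These fits reuse the samples that chose Celsr1 and are no test of the difference. In the litter shared by these genotypes, Celsr1 stood at 17.9, 16.3 and 16 CPM in 3 WT samples and at 27.4 CPM in 1 Kat6a E/E sample.

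The double mutant and Kat6b E/E comparisons use the same WT LSK samples as the comparison that chose Celsr1. In double mutant LSK cells the Celsr1 change was 0.80 ± 0.156 (95% interval 0.47 to 1.13; FDR 0.132, limma), and it fell to 0.29 when replicate 1 was left out. Double mutant replicates 2 to 4 were littermates, so that fit held 1 double mutant litter. The Celsr1 change ranged from 0.10 to 0.84 over 20 alternative settings. It was 0.36 without surrogate variables (FDR 0.802, limma) and 0.10 by edgeR without them, and the mean CPM was 16.5 in double mutant and 15.4 in WT cells. In Kat6b E/E LSK cells it was 0.14 ± 0.144 (95% interval -0.16 to 0.45; FDR 1.00, limma), but -0.08 without surrogate variables and -0.27 by edgeR without them, so no direction is given. No member was called by limma in either comparison, beside 0% of all genes in both. In double mutant cells 2 members had an unadjusted p under 0.05, beside 896 of the 13071 genes, DESeq2 called 1, Celsr1, and edgeR 0, and in Kat6b E/E cells all 3 counts of members were 0, beside 364 genes at an unadjusted p under 0.05. In a litter that held both genotypes Celsr1 stood at 16.7 CPM in Kat6b E/E and 28.9 CPM in double mutant LSK cells. Celsr2 stood at 13.9, 13.8, 13.6 and 14.4 CPM in WT and at 9.28, 2.77, 13.4 and 4.15 CPM in double mutant LSK cells. The double mutant samples all lay below the WT samples, but replicate 3 at 13.4 CPM was close to the lowest WT sample at 13.6 CPM. The Celsr2 change was -0.73 ± 0.251 (95% interval -1.26 to -0.20; FDR 0.553, limma).

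Markers of other cells were also read in the LSK samples. Cd3e, a T cell gene, was at 0 in all 16 libraries, and the granulocyte gene Ly6g stood at 0 to 2.95 CPM. The summed hepatocyte markers had medians of 86.7 CPM in WT (49.3 to 151.5), 45.5 CPM in Kat6a E/E (32.1 to 158.6), 89.1 CPM in Kat6b E/E (56.1 to 99.9) and 54.5 CPM in double mutant cells (34.3 to 209.0). The part of these markers in the differences between genotypes was not tested.

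Vangl1 stood at 5.62, 7.13, 6.58 and 20.6 CPM in WT, 5.65, 16.2, 6.14 and 3.46 CPM in Kat6a E/E, 13.5, 26.2, 22.3 and 13.2 CPM in Kat6b E/E and 6.96, 17.8, 30.3 and 18.0 CPM in double mutant LSK cells. The Vangl1 change in double mutant cells was -0.85 ± 0.409 (FDR 0.726, limma), but without surrogate variables it was 0.25, so no direction is given. Vangl2, Celsr3 and Prickle1 passed the threshold in none of the 3 LSK comparisons. Of the other pathway genes 33 of 40 were tested in LSK cells. In Kat6a E/E cells 1 was called, beside 1.36% of all genes. It was Fjx1, a Golgi kinase that acts on Fat and Dachsous proteins, which was lower by -0.82 ± 0.168. In Kat6b E/E and double mutant LSK cells 0 of the 33 were called by limma, with 0 and 2 genes at an unadjusted p under 0.05 beside 364 and 896 of the 13071 genes.

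**Figure D4:**
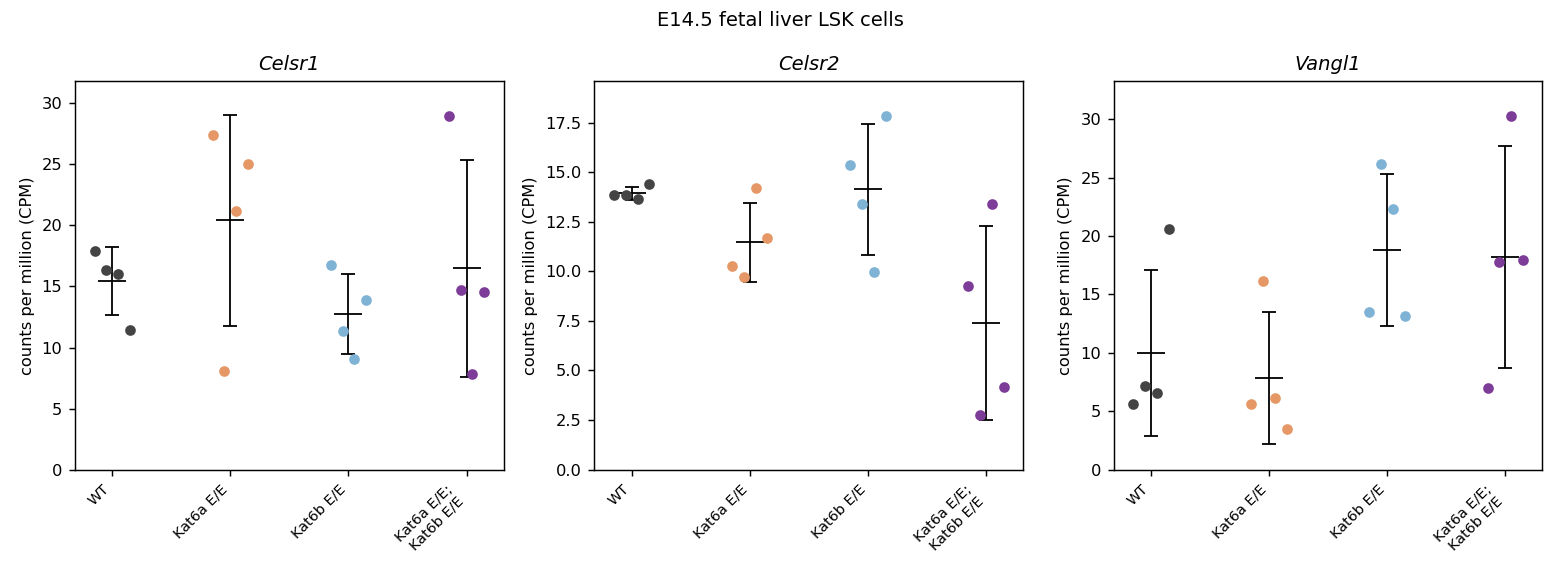
Celsr1, Celsr2 and Vangl1 in E14.5 fetal liver LSK cells, in library-scaled counts (CPM, vertical axes starting at 0) by genotype. Points are single samples and bars the mean ± SD of 4 samples. Replicate 2 of Kat6a E/E, the lowest in Celsr1 of its genotype at 8.08 CPM, is the highest of its genotype in Vangl1 at 16.2 CPM.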

How the data were processed

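RNA from 24 whole E9.5 embryos and 16 samples of sorted E14.5 fetal liver LSK cells was sequenced by the authors as paired-end reads. The deposited values are raw counts of read pairs per RefSeq gene, made by the authors with featureCounts on mm39, per the labels. Genes were joined to RefSeq by Entrez ID (26359 of 26411 matched) and protein-coding genes off the Y chromosome were kept. Each stage was fitted separately, as in the study's methods, with low-count filtering (filterByExpr), TMM scaling, 4 surrogate variables, voomLmFit with litter as a random block (litter correlation 0.107 in embryos, 0.331 in LSK cells) and robust limma moderation (R 4.3.3, edgeR 4.0.16, limma 3.58.1), and Benjamini-Hochberg FDR under 0.05 over all 14183 or 13071 genes was called. CPM used TMM-scaled totals of the genes tested, and RPKM the counted gene length. Alternatives were other numbers of surrogate variables, no litter term, edgeR, DESeq2 1.42.0, other filters and scaling, a replicate block and leaving out each library. The script was tested on simulated counts with known changes.

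The members and the gene lists were chosen with earlier results of these data known. All 7 members are named. Of the listed pathway genes those called are named, and for some groups without a call the gene with the smallest p. The replicates are separate embryos or fetuses, some from 1 litter. The library input, sequencer and read length differ between the labels and the methods. Promoter windows were read from GRCm39, and Celsr3's start was set by matching the RefSeq promoter sequence (table build GRCm38.p6) to it. Promoter entries for Celsr1 and Vangl1 were not used here. Of the marker genes fixed for mature blood cells, 2 are not reported here.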

Additional observations from a re-analysis of the deposited data

Results flagged for a closer look

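In 7 of 70 groups of 4 libraries, the highest or lowest library lay far from the other 3, by Dixon's criterion for the gap to the nearest library. Chance flags about 1 in 20 groups. In embryos these were Celsr1 at 116.5 CPM in Kat6a-/- replicate 1, against 102.3 to 103.5 CPM in the others, and Prickle2 at 12.01 CPM in WT replicate 3, against 13.4 to 13.6 CPM. In LSK cells they were Celsr3 at 7.71 CPM and Vangl1 at 20.6 CPM, both in WT replicate 4, where the others lay at 2.35 to 3.19 CPM and 5.62 to 7.13 CPM. The other WT replicates were littermates, and replicate 4 came from another litter. Celsr3 was at 9.54 CPM in Kat6a E/E replicate 2, against 4.52 to 4.96 CPM. Prickle2 was at 0.335 CPM in WT replicate 1 and at 3.02 CPM in double mutant replicate 2, where the other 3 double mutant libraries were at 0.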

How the results depend on the processing

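Of 2035 fitted changes of single members under alternatives, 1908 kept their side of the threshold. These 1908 kept their direction too, or changed it by less than 1 SE of the main fit. With their direction kept, 50 lost a call and 22 gained one. Another 55 changed direction by 1 SE or more without a call in either fit, and 0 called values reversed. The number of members called moved as follows; the cause was not tested. Without surrogate variables it was 0 in Kat6a-/-, double mutant and LSK Kat6a E/E against WT, in the double mutant against Kat6a E/E and in Kat6a-/- against Kat6b-/-. With 2 it was 1 in Kat6a-/- and 0 in double mutant and LSK Kat6a E/E against WT and in Kat6a-/- against Kat6b-/-. With 6 it was 1 in Kat6b-/- against WT and 1 in the double mutant against Kat6b E/E. With all gene types and Y-linked genes it was 1 in Kat6b-/- against WT, 2 in Kat6a E/E against Kat6a-/-, 1 in Kat6b E/E against Kat6b-/- and 0 in Kat6a-/- against Kat6b-/-. DESeq2 with 4 surrogate variables called 1 in Kat6b-/- and LSK double mutant against WT, 2 in Kat6a E/E against Kat6a-/-, 1 in Kat6b E/E against Kat6b-/- and 1 in the double mutant against Kat6a-/- and Kat6b E/E. edgeR's quasi-likelihood test called 1 in Kat6b-/- against WT and 2 in Kat6a E/E against Kat6a-/- with 4 surrogate variables, and without them 1 in Kat6a-/- against WT and 0 in double mutant and LSK Kat6a E/E against WT, in the double mutant against Kat6a E/E and in Kat6a-/- against Kat6b-/-. Without a low-count filter it was 1 in Kat6b-/- against WT, 2 in Kat6a E/E against Kat6a-/- and 1 in the double mutant against Kat6b E/E. Without the litter term it was 0 in LSK Kat6a E/E against WT. With only the 8 libraries compared it was 1 in Kat6a-/- and 0 in double mutant and LSK Kat6a E/E against WT, and 0 in Kat6a E/E against Kat6a-/-, the double mutant against Kat6a E/E and Kat6a-/- against Kat6b-/-.

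The replicate numbers do not pair the samples. Deviations of same-numbered libraries correlated at -0.427 to 0.353, and 7 of 24 embryo and 3 of 16 LSK libraries were closest to one of their own number. With the replicate number as a block, 1 member was called in Kat6a-/- and 1 in Kat6b-/- against WT, and 0 in LSK Kat6a E/E against WT and in Kat6a-/- against Kat6b-/-; it changed no other count of members.

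Leaving out 1 library gave 1 to 2 members in Kat6a-/- against WT and in Kat6a E/E against Kat6a-/-, 0 to 1 in the double mutant against WT and Kat6a E/E, in Kat6a-/- against Kat6b-/- and in LSK Kat6a E/E and Kat6b E/E against WT, 0 to 2 in LSK double mutant against WT, and 0 in the others. Counts over all genes moved too. In Kat6a-/- against WT they were 111 without surrogate variables and 631 with 6, beside 375. In the double mutant against WT they were 0 and 811, beside 413. In LSK Kat6a E/E against WT they were 3 without surrogate variables, 33 without the litter term and 28 with the replicate block, beside 178, and in the LSK double mutant 2170 without its replicate 1, beside 0. Depth limits Celsr3, at 45 to 355 counts a library in embryos, and Prickle2, which was too low to test in LSK cells.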
